A study of Mus musculus with 67 samples.

Results

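The 38 genes described here are listed as transcriptional targets of the tumour suppressor p53, together with Trp53 itself, the gene that encodes it. They were taken by name from a list, with no threshold on a measured value. Whether p53 acts on each of them in mouse was not tested. All 38 have a row among the 29579 genes of the expression table, and all 38 passed the minimum mean of 1 TPM in every comparison below. TPM is a level corrected for gene length and scaled within each library.

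Bulk RNA of mouse small intestine was sequenced in 67 libraries, 18 of freshly isolated crypts and 49 of organoids. Crypts came from 8-week-old female C57BL/6 mice. Normal crypts were not irradiated. IR crypts were taken 1, 2, 3 or 5 days after a single dose of 12 Gy of irradiation. VE crypts were taken on the same days from irradiated mice that were also gavaged daily with valproic acid (VPA, a histone deacetylase inhibitor, 40 mg/kg) and EPZ6438 (which blocks the methyltransferase EZH2, 0.6 mg/kg). Each of these 9 groups holds 2 libraries, and the labels name no vehicle for the IR groups. Organoids were grown from proximal crypts of mice aged 6 to 12 weeks. ENR is the conventional medium with EGF, noggin and R-spondin (7 libraries). 8C is a medium of 8 components: VPA (500 µM), EPZ6438 (2 µM), the BMP receptor inhibitor LDN193189 (0.2 µM), the GSK3 inhibitor GSK3iXV (0.1 µM), the p38 and TIE2 inhibitor Pexmetinib (1 µM), EGF (50 ng/mL), bFGF (20 ng/mL) and R-Spondin 1 conditioned medium (10%) (7 libraries). The other groups lack named components or add them: 8C-VE lacks VPA and EPZ6438 (7 libraries), 8C-V lacks VPA (6), 8C-E lacks EPZ6438 (7), 8C-GSK3i, 8C-Pex, 8C-bFGF and 8C-EGF each lack the component named (3 each), and ENR+VE is ENR with VPA and EPZ6438 (3, doses not given in the sources used here). The study counts mice as its replicates in several of its analyses, but the labels do not tie a library to an animal or a culture, so the p-values measure the spread between these libraries, whatever its source.

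In unstressed cells p53 is kept low by MDM2, a ubiquitin ligase that marks it for degradation and whose own gene p53 switches on. DNA breaks, such as those made by ionising radiation, activate kinases that free p53 from MDM2. The stabilised protein then binds DNA as a tetramer and turns on genes of cell cycle arrest, apoptosis, DNA repair and metabolism. Because the control acts mainly on the protein, the level of Trp53 mRNA is not a measure of p53 activity, and a target's mRNA also answers to other factors. The crypt is a textbook site of this response, since its cycling cells are among the most radiation sensitive of the adult body.

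p53 binds an element made of 2 half-sites of 10 letters. RefSeq promoter windows (GRCm38.p6, from 250 bases before to 50 bases after each start) were found for 30 of the 38 genes, 42 windows in all. They were searched on both strands for the 2 half-sites joined without a spacer; the element is its own reverse complement, and no other motif was searched. A site with at most 1 of its 20 positions off the consensus lay in 3 of the 42 windows (7.14%), against 0.0883% of 32851 windows of all genes. With up to 3 positions off, it was 11 of 42 windows (26.2%), of 10 genes, against 6.29%. The 3 sites with 1 position off are printed first, as the closest matches, and then those with 3 off in the genes of p53 itself, the main death genes and Sesn1, which have results below, each 5′ to 3′ on the strand of its gene, with the 20 positions of the element in capitals.
Ccng1, chr11:40755457-40755486, minus strand: aggccAGACCTGCCCGGGCAAGCCTtggca
Rps27l, chr9:66946291-66946320, plus strand: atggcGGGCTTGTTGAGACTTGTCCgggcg
Gtse1, chr15:85859940-85859969, plus strand: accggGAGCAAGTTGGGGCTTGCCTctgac
Bax, chr7:45467085-45467114, minus strand: tgacaAGCATATCCCAGGCAAGCTTtgaac
Bbc3, chr7:16309481-16309510, plus strand: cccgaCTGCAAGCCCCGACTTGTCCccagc
Aen, chr7:78895932-78895961, plus strand: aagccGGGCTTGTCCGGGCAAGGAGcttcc
Trp53, chr11:69580279-69580308, plus strand: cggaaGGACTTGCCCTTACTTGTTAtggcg
Sesn1, chr10:41887261-41887290, plus strand: ccttcAAGCTTGTTTTTGCTGGCCTggtcc

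The Ccng1 element begins 195 bases before the start site. It is shown with 40 bases on either side because Ccng1 has both a near-perfect element and one of the largest responses to irradiation below.
Ccng1, chr11:40755422-40755521, minus strand: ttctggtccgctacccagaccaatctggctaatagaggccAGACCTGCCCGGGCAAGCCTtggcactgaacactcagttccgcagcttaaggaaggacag
Tigar and Polk also have a window with 3 positions off. The closest stretch in the windows of Phlda3, Mdm2, Plk2 and Psrc1 had 5 positions off, which says only that these letters are not in those windows.

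Read depth is unknown, because TPM keeps none. The listed values summed to 983801 to 988144 in organoid libraries and 819346 to 910935 in crypt libraries. The crypt totals thus differ between libraries, and the lowest were those of IR day 3 (819346 and 843367). The crypt and organoid libraries differ in what fills them. Mitochondrial genes took 1.52 to 6.64% of the TPM in organoids and 10.6 to 48.4% in crypts, led in every crypt library by mt-Atp8. The highest share was that of IR day 3 replicate 1 (48.4%). IR day 3 replicate 2 (37.9%) lay below VE day 3 replicate 1 (41.5%) and IR day 2 replicate 1 (39.9%). The median change of all 10802 genes tested in crypts was not 0: it was -0.36, -0.61, -1.03 and 0.27 on the log2(TPM + 1) scale at days 1, 2, 3 and 5 in IR crypts against Normal. Epithelial markers (Epcam, Cdh1, Krt8, Krt18, Vil1, Cldn7) summed to 2652 to 6721 TPM in crypts and 6424 to 12280.5 TPM in organoids. In organoids the 9 immune markers summed to at most 2.76 TPM. In crypts they summed to 58.1 to 96.4 TPM in Normal and 4.49 to 9.0 TPM in IR day 5. Plasma cell markers, led by immunoglobulin genes, summed to 1529.5 to 1976 TPM in Normal and to at most 191 TPM in any irradiated library. The summed markers of other epithelial types also differed between days. Stem cell markers summed to 223 to 416 TPM in Normal, 42.8 to 46.9 at IR day 1, 10.1 to 14.0 at day 2, 14.4 to 17.7 at day 3 and 121 to 169.8 at day 5. Enterocyte markers summed to 3971 to 7885 TPM in Normal, 11017 to 12233 at IR day 1, 15353 to 19541 at day 2 and 1116 to 3492 at day 3, and Paneth cell markers to 11528 to 27794 TPM in Normal and 5722 to 8451 at day 2. Proliferation genes summed to 542 to 672 TPM in Normal, 341 to 351 at IR day 1, 127 to 154 at day 2 and 171 to 274 at day 3. Goblet cell markers summed to 4230.2 to 5086 TPM in Normal and 3141 to 3363 at IR day 3. The part of these markers and cell types in the results was not tested. In bulk RNA, a change in the share of a cell type and a change in its RNA per cell cannot be told apart.

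Irradiation was followed within a day by higher levels of p53 targets of most roles. A gene was called when its adjusted p in limma, over all genes tested, was under 0.05 and it differed at least 2-fold. At day 1, 14 of the 38 genes were called higher and 1 lower in IR crypts than in Normal. Of all 10802 genes, 1.43% were called higher and 5.48% lower. The median of the 38 was 0.59, against -0.36 over all genes, and 29 of them lay above that median. The 14 were Mdm2, the death genes Aen, Bax, Eda2r, Tnfrsf10b and Trp53inp1, the growth control genes Ccng1, Gdf15, Phlda3, Plk2 and Zmat3, the metabolic genes Dcxr and Sesn2, and Psrc1, which encodes a spindle protein. The lower gene was Plk3. After quantile normalization, which removes the shift common to all genes, 18 were called higher and none lower. In that setting the median of the 38 was 0.97, against 0.01 over all genes, and the share of all genes called is not given. In a fit of only the 4 libraries compared, which leaves fewer libraries to estimate the spread, 4 were called: Ccng1, Dcxr, Eda2r and Phlda3. The other 11 calls of day 1 thus rest on the spread shared by all 9 crypt groups.

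**Figure D1:**
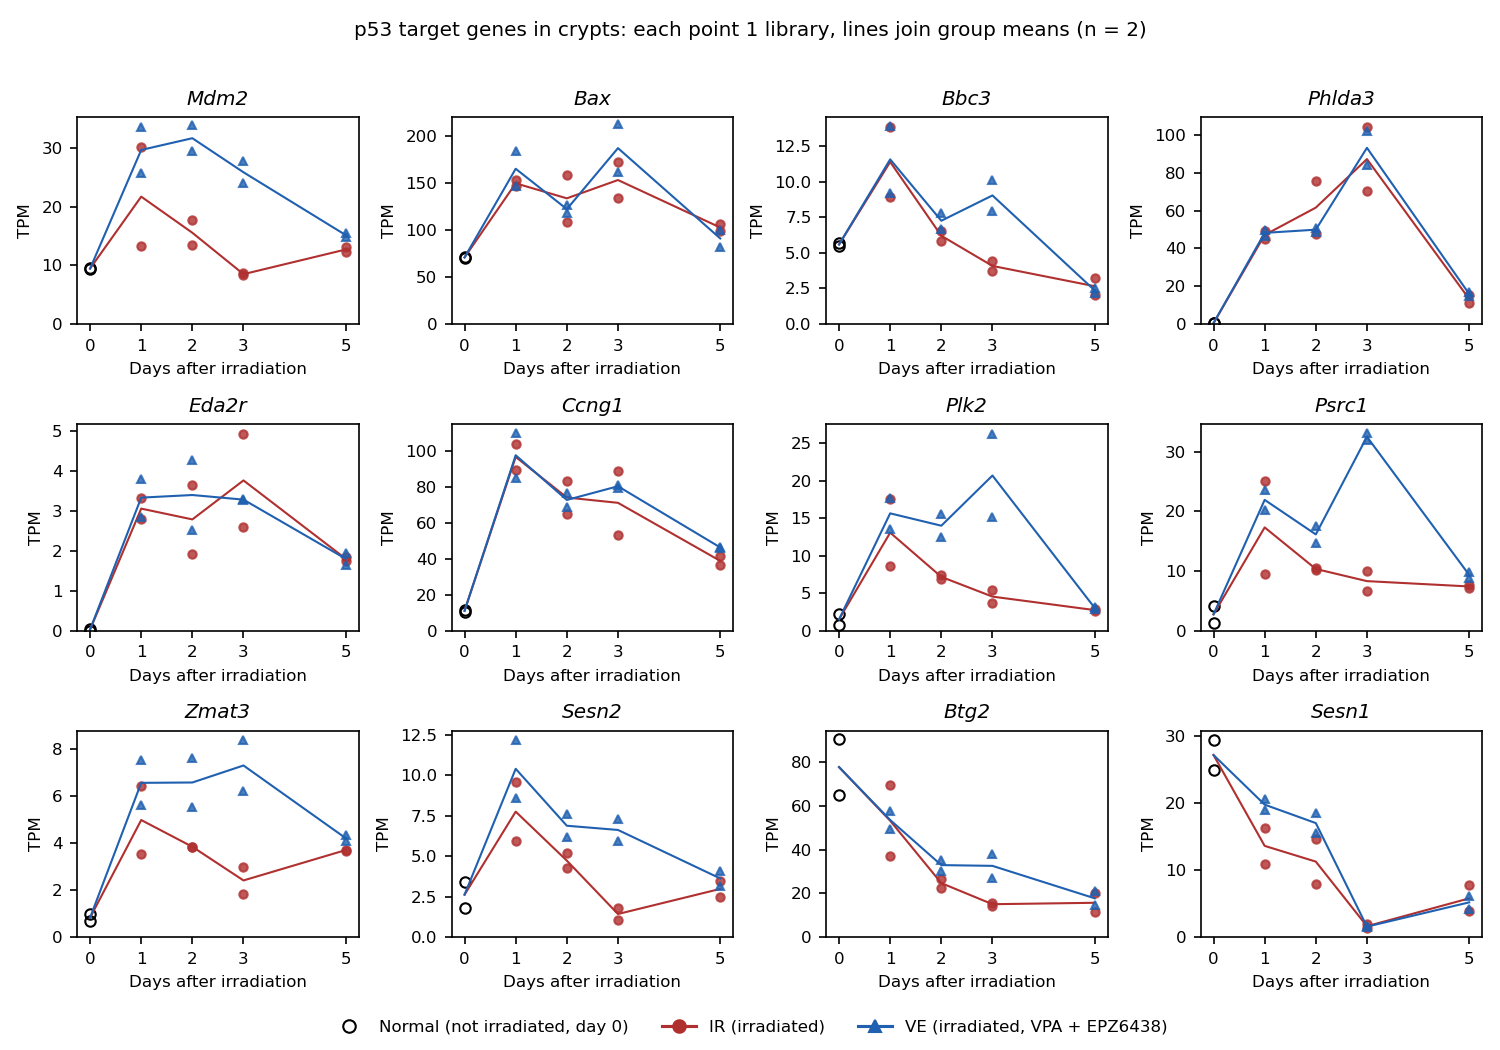
TPM (vertical axes, linear from 0) of 12 p53 target genes against days after irradiation, with each point 1 crypt library, open circles Normal, red circles IR, blue triangles VE and lines joining the means of 2 libraries. Phlda3 and Ccng1 were far above Normal at each day, while Btg2 lay below it from day 2 and Sesn1 at each day.

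The feedback inhibitor Mdm2 (chr10:117688875-117710758) stood at 9.36 and 9.55 TPM in Normal. In IR crypts it was 30.1 and 13.3 TPM at day 1, 17.7 and 13.4 at day 2, 8.38 and 8.62 at day 3, and 13.1 and 12.3 at day 5. Every library of days 1, 2 and 5 was above both Normal libraries. Those of day 3 were below them, yet Mdm2 was called higher at that day (1.05) after quantile normalization, so that its direction flips with the scaling. The difference was 1.01 (SE 0.28) at day 1 on the log2(TPM + 1) scale, with a limma adjusted p of 0.032. That call rests on few libraries: it was lost without IR replicate 1 (0.45) and without either Normal library. Trp53 itself (chr11:69580359-69591873) was 28.1 and 39.1 TPM in Normal, 28.5 and 20.4 at day 1, and 10.9 and 16.4 at day 3. Its difference at day 3 was -1.25 (SE 0.24, limma adjusted p = 3.4e-04), which is -0.21 relative to the median of all genes. It was no longer called after quantile normalization or without IR replicate 1 of that day. At day 5 Trp53 was 39.9 and 33.5 TPM, which overlaps Normal.

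Phlda3 (chr1:135766119-135769136), which encodes a pleckstrin-homology protein that restrains AKT signalling, showed the largest change of the 38 at each day. It was 0.381 and 0.590 TPM in Normal, 45.1 and 49.1 at day 1, 47.6 and 75.5 at day 2, 70.4 and 104 at day 3, and 11.3 and 15.2 at day 5. No IR library approached the Normal level. The differences on the log2(TPM + 1) scale were 5.02, 5.36, 5.87 and 3.25 (SE 0.24 each), with limma adjusted p of 4.9e-07 or lower. They held in every alternative of processing that was run.

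Ccng1 (chr11:40748552-40755311), the gene of cyclin G1, which takes part in a feedback loop with MDM2, rose from 11.6 and 10.5 TPM in Normal to 89.8 and 104 at day 1. It was 64.9 and 83.6 at day 2, 53.4 and 89.2 at day 3, and 36.4 and 41.4 at day 5. All 8 IR libraries were above Normal, with the highest values at day 1. The differences were 3.02, 2.63, 2.54 and 1.73 (SE 0.23 each; limma adjusted p from 7.3e-07 to 8.6e-05). Ccng1 was also called at each day in every alternative.

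The other growth control genes followed separate courses. Plk2, a polo-like kinase, was 0.722 and 2.28 TPM in Normal, 17.5 and 8.65 at day 1, and 2.89 and 2.58 at day 5. Its differences were 2.49, 1.78 and 1.20 (SE 0.35) at days 1, 2 and 3, all called, and 0.65 at day 5, not called. The call of day 3 was lost without IR replicate 2 (of that day) or Normal replicate 1. Gdf15, a secreted stress cytokine, was 3.81 and 7.78 TPM in Normal and 27.9 and 12.5 at day 1. It was called higher only at day 1 (1.60, SE 0.36, limma adjusted p = 0.0118), and not without Normal replicate 1. Zmat3, an RNA-binding zinc finger protein, was 0.686 and 0.968 TPM in Normal, 6.43 and 3.55 at day 1, 3.84 and 3.86 at day 2, 1.84 and 2.99 at day 3, and 3.69 and 3.73 at day 5. No IR library of Zmat3 overlapped Normal.

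Part of the growth control group went the other way. Plk3, another polo-like kinase, was 36.5 and 45.1 TPM in Normal, 28.1 and 6.85 at day 1, 5.02 and 2.53 at day 2, 2.50 and 1.96 at day 3, and 8.08 and 10.4 at day 5. Its libraries were low on every later day, and the 2 of day 1 lay far apart. The differences were -3.17, -3.69 and -2.03 (SE 0.45) at days 2, 3 and 5, called in every alternative, whereas that of day 1 (-1.46, limma adjusted p = 0.0461) was lost in 9 of 15. Btg2, an antiproliferative gene induced early in many stress responses, was 65.0 and 90.6 TPM in Normal and 11.4 to 26.8 TPM in the 6 IR libraries of days 2, 3 and 5. The differences were -1.60, -2.28 and -2.27 (SE 0.31). Sertad1, which encodes a CDK4-binding protein, was 58.6 and 63.4 TPM in Normal and 23.0 and 24.9 at day 5 (-1.31, SE 0.22, limma adjusted p = 5.9e-04).

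Among the 12 death genes, Eda2r, a receptor of the tumour necrosis factor family, was listed at 0 and 0.0518 TPM in Normal. It was 2.78 and 3.32 TPM at day 1, 1.91 and 3.65 at day 2, 2.59 and 4.92 at day 3, and 1.85 and 1.74 at day 5. The groups did not overlap at any day, at levels that stayed low, and the differences were 1.98, 1.84, 2.17 and 1.45 (SE 0.29). Bax, the pore-forming protein of the mitochondrial apoptosis pathway, was 71.7 and 70.4 TPM in Normal and 153 and 147 at day 1. It was 134 and 173 TPM at day 3 and 98.8 and 107 at day 5. Bax was called at days 1 and 3 (1.07 and 1.09, SE 0.21), at day 3 not without IR replicate 2, while days 2 and 5 (0.88 and 0.52) did not reach the 2-fold minimum.

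Bbc3, the gene of the BH3-only protein PUMA, was 5.67 and 5.50 TPM in Normal, 13.8 and 8.95 at day 1, 5.83 and 6.56 at day 2, 3.71 and 4.45 at day 3, and 3.25 and 2.06 at day 5. It stood above Normal at days 1 and 2 and below it at days 3 and 5. The difference at day 1 was 0.88 (SE 0.26, limma adjusted p = 0.0408), under 2-fold, and 1.30 after quantile normalization. Trp53inp1, a p53-induced stress protein, was 0.853 and 0.921 TPM in Normal, 6.50 and 3.92 at day 1, and 5.36 and 6.01 at day 2. It was called at days 1, 2 and 3 (1.69, 1.82 and 1.01, SE 0.33), at day 3 not without IR replicate 2 or Normal replicate 1. Aen, an apoptosis-enhancing nuclease, and Tnfrsf10b, the mouse TRAIL receptor, were called at day 1 alone, at 1.03 (SE 0.26) and 1.01 (SE 0.22). Both calls were lost without IR replicate 1 or without Normal replicate 1. Of the remaining death genes, Fas, Pmaip1, Perp, Ei24 and Pidd1 were called at no day. Perp, a desmosomal membrane protein with a role in apoptosis, was 90.9 and 82.0 TPM in Normal and 117 and 150.3 at day 2 (0.61, SE 0.20, under 2-fold). Apaf1, the scaffold of the apoptosome, was called lower at day 3 (-1.24, SE 0.45, limma adjusted p = 0.021), but not after quantile normalization or without Normal replicate 1, which held 11.2 TPM against 3.35 in replicate 2.

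The metabolic genes were split. Dcxr, a dicarbonyl and xylulose reductase, was 22.8 and 26.8 TPM in Normal and 61.9 to 92.5 TPM in the 6 IR libraries of days 1, 2 and 3 (1.55, 1.69 and 1.41, SE 0.21). Ak1, adenylate kinase 1, was 0.0724 and 0.163 TPM in Normal and 2.10 and 3.37 at day 2 (1.72, SE 0.34). The sestrins, which restrain mTORC1 signalling, moved apart. Sesn2 was 1.81 and 3.43 TPM in Normal, 9.56 and 5.93 at day 1 (1.28, SE 0.29), and 1.08 and 1.77 at day 3. Its call at day 1 was lost without IR replicate 1 or Normal replicate 1. Sesn1 was 24.9 and 29.4 TPM in Normal, 16.3 and 10.9 at day 1, 1.96 and 1.28 at day 3, and 7.72 and 3.83 at day 5. All 8 IR libraries of Sesn1 were below Normal, and its differences of -3.43 (SE 0.32) at day 3 and -2.11 at day 5 were called in every alternative.

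Of the remaining metabolic genes, Fdxr, ferredoxin reductase, was 6.84 and 8.80 TPM in Normal and 2.46 and 2.68 at day 3 (-1.30, SE 0.22), which was -0.04 in the alternative nearest to 0. Tigar, a fructose bisphosphatase that lowers glycolysis, and Ddit4, an mTORC1 inhibitor induced by stress, were called at no day.

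The 5 repair genes held no member called higher at any day in the TPM as deposited, although Polk, a translesion DNA polymerase, was called higher at days 1 and 3 after quantile normalization (1.06 and 1.13). Ddb2, the damage-binding subunit of nucleotide excision repair, was 3.37 and 7.22 TPM in Normal and 0.793 and 0.901 at day 2 (-1.70, SE 0.30, limma adjusted p = 4.8e-04). Xpc and Ercc5, of the same repair pathway, were called lower at day 3 (-1.11 and -1.0), yet stood at 0.03 and 0.14 once the trend of change with transcript length was removed, so that their direction flips with that setting. Of the mitotic genes, Psrc1 was 1.28 and 4.17 TPM in Normal, 25.2 and 9.45 at day 1, and 7.70 and 7.12 at day 5, and was called at all 4 days (2.27, 1.72, 1.41 and 1.29, SE 0.38). The call of day 3 was lost without Normal replicate 1, and that of day 5 without Normal replicate 1 or either IR library. Gtse1 was 3.70 and 5.40 TPM in Normal and 10.8 and 9.85 at day 5 (1.04, SE 0.31), a call also lost without Normal replicate 1 or either IR library. Rps27l, the most abundant of the 38 at 506 to 1021 TPM, and Triap1, both tied to survival, were called at no day. The days are compared with the same 2 Normal libraries and are not independent of each other.

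**Figure D2:**
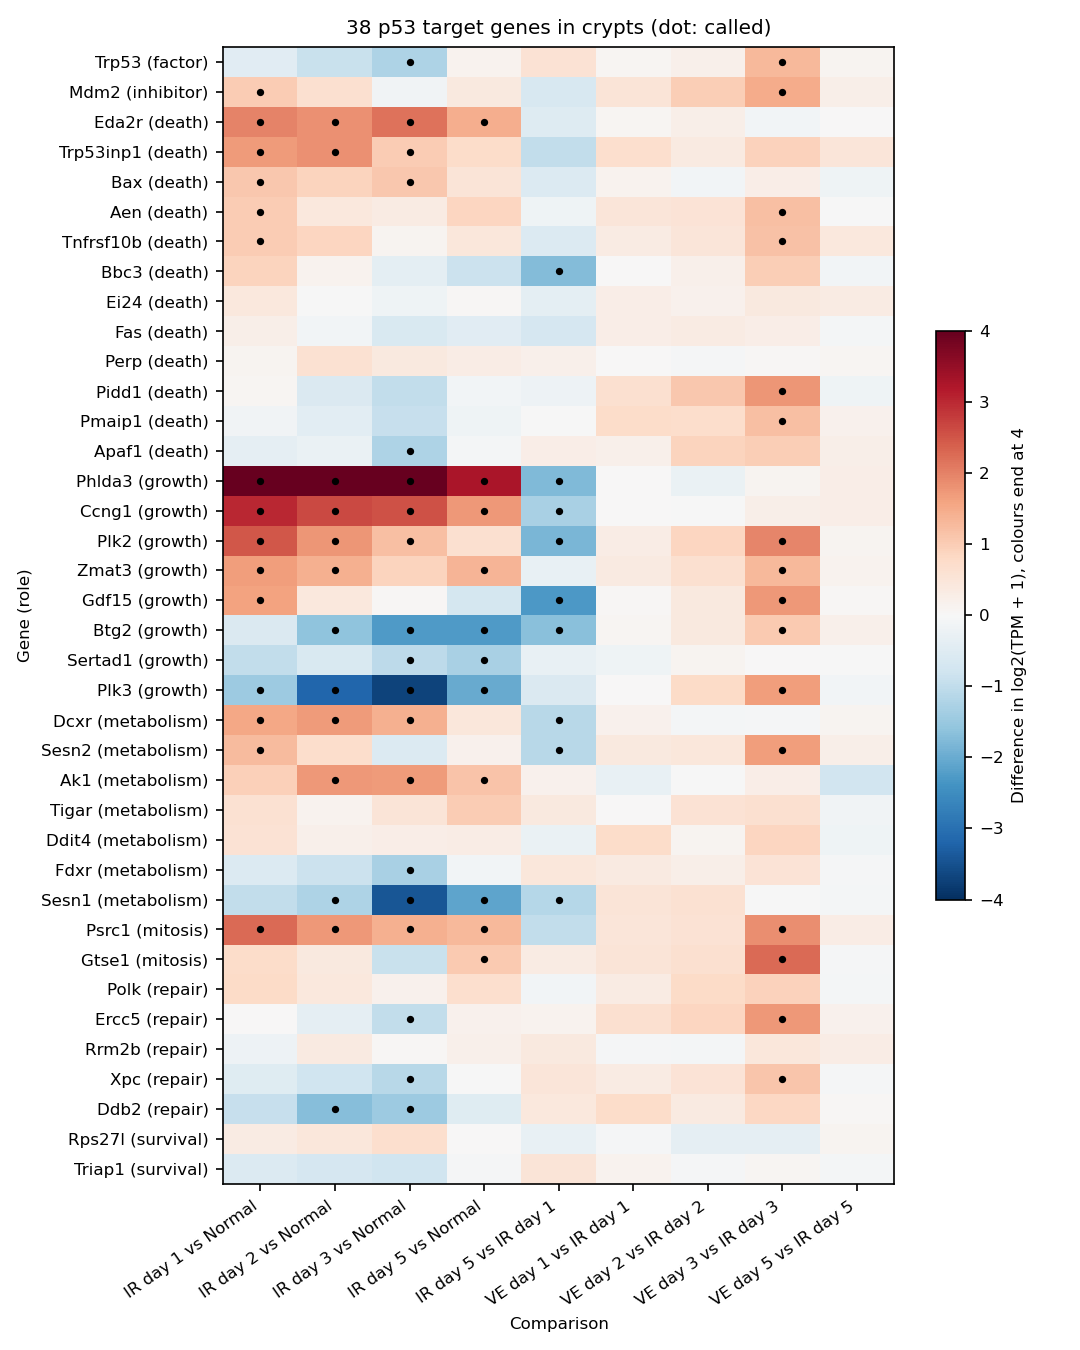
Difference in log2(TPM + 1) of the 38 genes (rows, grouped by role) in 9 crypt comparisons (columns), red higher, blue lower, with a dot where the gene was called and colours ending at 4. Phlda3, Ccng1, Eda2r and Psrc1 carry a dot in each of the 4 columns of IR against Normal, and the column of VE against IR at day 3 holds 16 dots, all red.

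The counts changed over the days. At day 2, 9 of the 38 were called higher and 4 lower, against 4.55% and 26.2% of all genes. At day 3, 9 were called higher and 10 lower, against 2.56% and 51.3% of all genes. At day 5 there were 7 higher and 4 lower, against 10.2% and 5.61%. The share of the 38 called lower at days 2 and 3 was thus below that of all genes. Their medians were 0.38, -0.05 and 0.18 at these days, against -0.61, -1.03 and 0.27 over all genes. At days 2 and 3, 29 of the 38 lay above the median of all genes, and at day 5 it was 18. The percentages above are those of the TPM as deposited and are no background for the next counts. After quantile normalization, the counts were 16 higher and 3 lower at day 2, 20 and 3 at day 3, and 6 and 4 at day 5. The median of the 38 in that setting was 0.89, 1.09 and 0.06 at these days, against -0.03, 0.00 and 0.09 over all genes. Mdm2, Aen, Tnfrsf10b, Sesn2 and Gdf15, which were not called at day 2 in the TPM as deposited, were called higher there in that setting.

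IR crypts at day 5 were also compared with day 1 directly, a difference whose value uses no Normal library, although all crypt groups share its estimate of the spread. None of the 38 was called higher and 9 were called lower, against 20.6% of all genes higher and 3.47% lower. The 9 were Bbc3 (-1.75, SE 0.26), Btg2, Ccng1, Dcxr, Gdf15 (-2.29, SE 0.36), Phlda3 (-1.77, SE 0.24), Plk2 (-1.84, SE 0.35), Sesn1 and Sesn2. In a fit of these 4 libraries alone, 7 were called, all but Sesn1 and Sesn2. All 38 lay below the median of all genes, which was 0.62, with a median of their own of -0.31. Quantile normalization gave 15 lower and none higher, with a median of -0.90 for the 38, against 0.06 over all genes. The share of all genes called in that setting is not given. In the same comparison 17 of 18 proliferation genes were called higher. Their summed TPM was 341 and 351 at day 1, 811 and 947 at day 5, and 542 and 672 in Normal, and the part of the cycling cells in the results of the 38 was not tested.

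**Figure D3:**
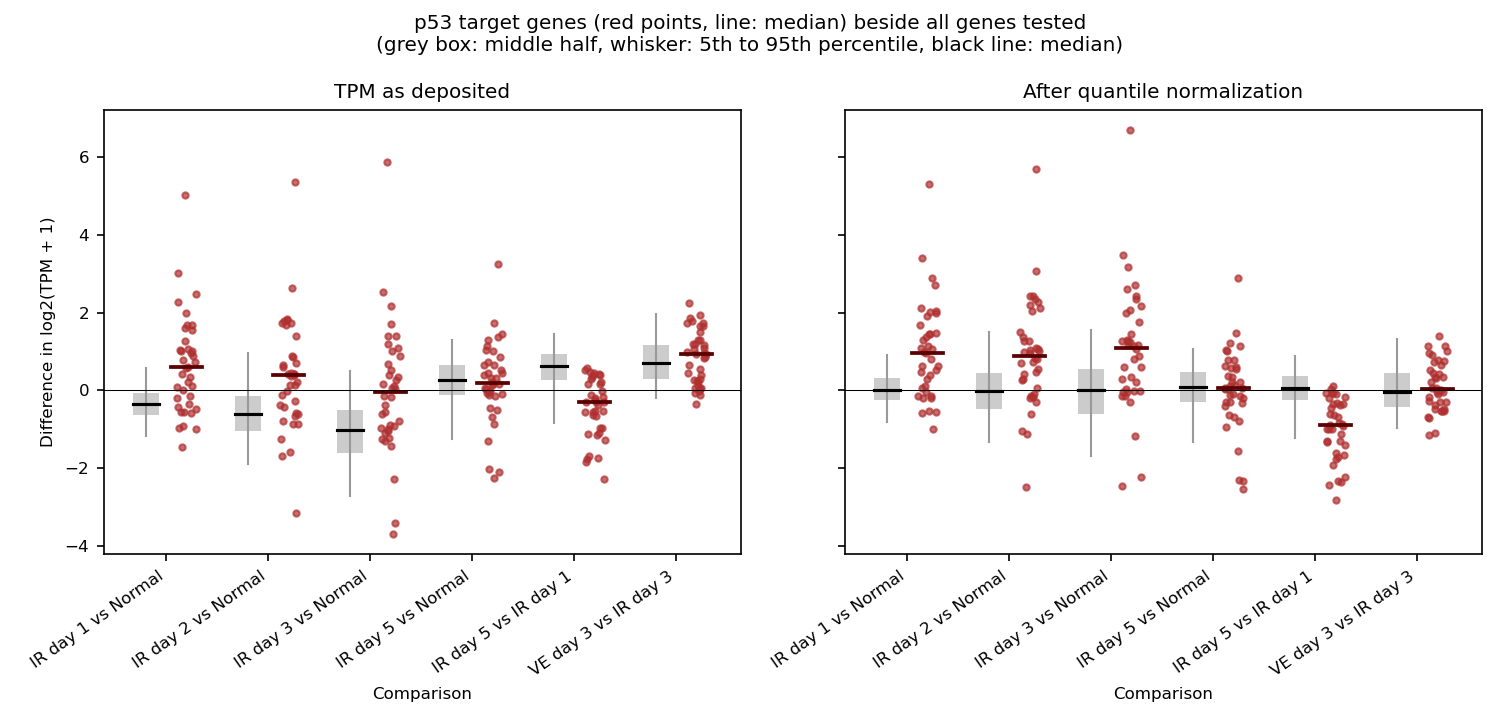
Difference in log2(TPM + 1) of the 38 genes (red points, dark red line at their median) beside all 10802 genes tested (grey box for the middle 50%, whiskers from percentile 5 to 95, black line at the median), for the TPM as deposited (left) and after quantile normalization (right). The median of the 38 was above that of all genes at days 1 to 3 and below it in day 5 against day 1 on both sides. On the left, 29 of the 38 lay above the median of all genes at each of days 1 to 3. In VE at day 3 the median of the 38 was 0.93 on the left, beside 0.69 for all genes, and 0.03 on the right.

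VPA and EPZ6438 were given after irradiation to ask how they alter regeneration. Their effect on the p53 targets was assessed against IR crypts of the same day. At days 1, 2 and 5 limma called none of the 38, with 2, 8 and 1 (5.26%, 21.1% and 2.63%) at an unadjusted p under 0.05, against 13.2%, 36.7% and 1.65% of all genes. Of all genes, 0.00926%, 8.31% and 0.0185% were called higher at these days and 0%, 0.0648% and 0% lower. The result of day 1 moved when IR replicate 1 of that day was left out. That fit holds 1 IR library of day 1, and the share of all genes called in it is not given. Mdm2 was nearest to a call at day 2, with 29.4 and 33.9 TPM in VE against 17.7 and 13.4 in IR (0.99, SE 0.28, limma adjusted p = 0.0379, just under 2-fold).

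At day 3, 16 of the 38 were called higher in VE and none lower, against 31.6% and 0.0555% of all genes, so that a share of all genes nearly as large was higher too. The median of the 38 was 0.93, against 0.69 over all genes. Mitochondrial genes took 41.5 and 25.4% of the TPM in VE and 48.4 and 37.9% in IR. The changes of all genes also ran with transcript length, with a Spearman correlation of 0.48 across 10802 genes, which are not independent. The median change was 0.33 among genes with transcripts of up to 3015 bases and 1.03 among those of at least 5558 bases. Without mitochondrial genes, with the rest rescaled, 13 of the 16 were still called, all but Aen, Btg2 and Pmaip1. With quantile normalization 4 were higher and 2 lower, and with the length trend removed 4 were higher and 1 lower. After quantile normalization the median of the 38 was 0.03, against -0.05 over all genes. The shares of all genes called in these settings are not given, so the counts have no background beside them.

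Plk2, Gtse1 and Psrc1 were called higher in VE at day 3 under all of these settings. Psrc1 was 33.1 and 32.0 TPM in VE and 6.61 and 10.0 in IR. The groups lay far apart, and the difference was 1.87 (SE 0.38, limma adjusted p = 0.00138), or 1.15 after quantile normalization. Gtse1, a microtubule-associated protein of the G2 and S phases that binds p53, was 13.3 and 12.6 TPM in VE and 1.32 and 2.73 in IR, the largest difference of the 38 (2.25, SE 0.31, limma adjusted p = 2.5e-04), or 1.40 after quantile normalization. Plk2 was 26.3 and 15.1 TPM in VE and 3.64 and 5.43 in IR (1.94, SE 0.35). Proliferation genes summed to 258 and 453 TPM in VE and to 171 and 274 in IR at day 3, and 7 of 18 were called higher. So were 2 of 6 epithelial markers (Cdh1 and Vil1), 2 of 5 of goblet cells (Muc2 and Clca1), 2 of 4 tested of enteroendocrine cells, both tested markers of tuft cells, 1 of 6 of enterocytes (Alpi) and 1 of 6 tested of immune cells (Ptprc), and none of these lists held a marker called lower. Their part in the result was not tested.

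Mdm2 was 27.7 and 24.0 TPM in VE and 8.38 and 8.62 in IR at day 3 (1.49, SE 0.28, limma adjusted p = 9.1e-04), and 0.75 after quantile normalization, under 2-fold. Pidd1, a death-domain scaffold protein, was 6.28 and 4.35 TPM against 0.608 and 1.05 (1.78, SE 0.40). Trp53 was 31.9 and 37.0 TPM in VE and 10.9 and 16.4 in IR (1.30). Its call was lost after quantile normalization and with the length trend removed. Ercc5 (1.73), Gdf15 (1.72), Sesn2 and Plk3 (1.66 each) were also called higher, though not after quantile normalization. Phlda3 and Ccng1, with the largest increases among the 38 at day 3 after irradiation, were not called between VE and IR. Phlda3 was 84.3 and 102 TPM in VE against 70.4 and 104 in IR, and Ccng1 was 81.3 and 79.8 against 53.4 and 89.2, with overlapping libraries in both. Eda2r (3.26 and 3.29 against 2.59 and 4.92 TPM) was called lower in VE with quantile normalization and with the length trend removed, at -1.14 after quantile normalization, though its libraries overlap in the TPM as deposited.

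Over the mean of the 4 days, limma called none of the 38 at 2-fold, against 3.54% of all genes called higher and 0.00926% lower. An unadjusted p under 0.05 was found for 23 of the 38 (60.5%) and for 61.0% of all genes. The test of whether the difference between VE and IR depends on the day gave 1 of 38, Gtse1 (limma F test, adjusted p = 0.0468), against 1.75% of all genes. At an unadjusted p under 0.05 there were 12 of the 38 (31.6%), against 28.1% of all genes. The Gtse1 difference at day 3 exceeded that at day 1 by 1.72, and quantile normalization left no member past this test.

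Other genes of the pathway show what surrounds the 38. Of 25 further p53 targets, 23 passed the minimum mean in crypts. Of these, 6 were called higher and 2 lower at IR day 1, 5 and 5 at day 2, 2 and 8 at day 3, and 3 and 2 at day 5. The shares of all genes called higher and lower were 1.43% and 5.48% at day 1, 4.55% and 26.2% at day 2, 2.56% and 51.3% at day 3, and 10.2% and 5.61% at day 5. At day 1, Cdkn1a, the cyclin-dependent kinase inhibitor p21 and the best known arrest gene of p53, was higher by 1.54 (SE 0.16, limma adjusted p = 6.3e-05), Ephx1, an epoxide hydrolase, by 3.72 (SE 0.25), and Abhd4 by 1.27 (SE 0.19). Gadd45a was lower (-1.87, SE 0.33). Of 20 upstream kinases, regulators and p53 relatives, 14 passed the minimum mean, and none was called higher at any IR day, while 6 were lower at day 2, where 26.2% of all genes were, and 5 at day 3, where 51.3% of all genes were. At VE day 3 against IR day 3, 7 of the 23 further targets and 6 of these 14 were called higher, beside 31.6% of all genes. The 6 include Mdm4, another inhibitor of p53 (1.87, SE 0.42), and the coactivator Ep300 (1.39, SE 0.38), which were also higher at day 2 (1.65 and 1.93).

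In organoids, which were not irradiated, the 2 complete media differed in targets of several roles. In 8C against ENR, 7 of the 38 were called higher and none lower, against 11.9% and 3.31% of all 12665 genes. The median of the 38 was 0.39, against 0.08 over all genes. The genes were Ak1, Dcxr, Eda2r, Gdf15, Phlda3, Psrc1 and Zmat3. Mdm2 was 22.7, 33.1 and 42.2 TPM in 8C (lowest, median and highest of 7) and 27.5, 32.1 and 37.1 in ENR, a difference of 0.04 (SE 0.13) with overlapping libraries. Trp53 was 69.3, 91.0 and 126 TPM in 8C and 115, 123 and 140.4 in ENR (-0.35, SE 0.13, limma adjusted p = 0.0462, under 2-fold).

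**Figure D4:**
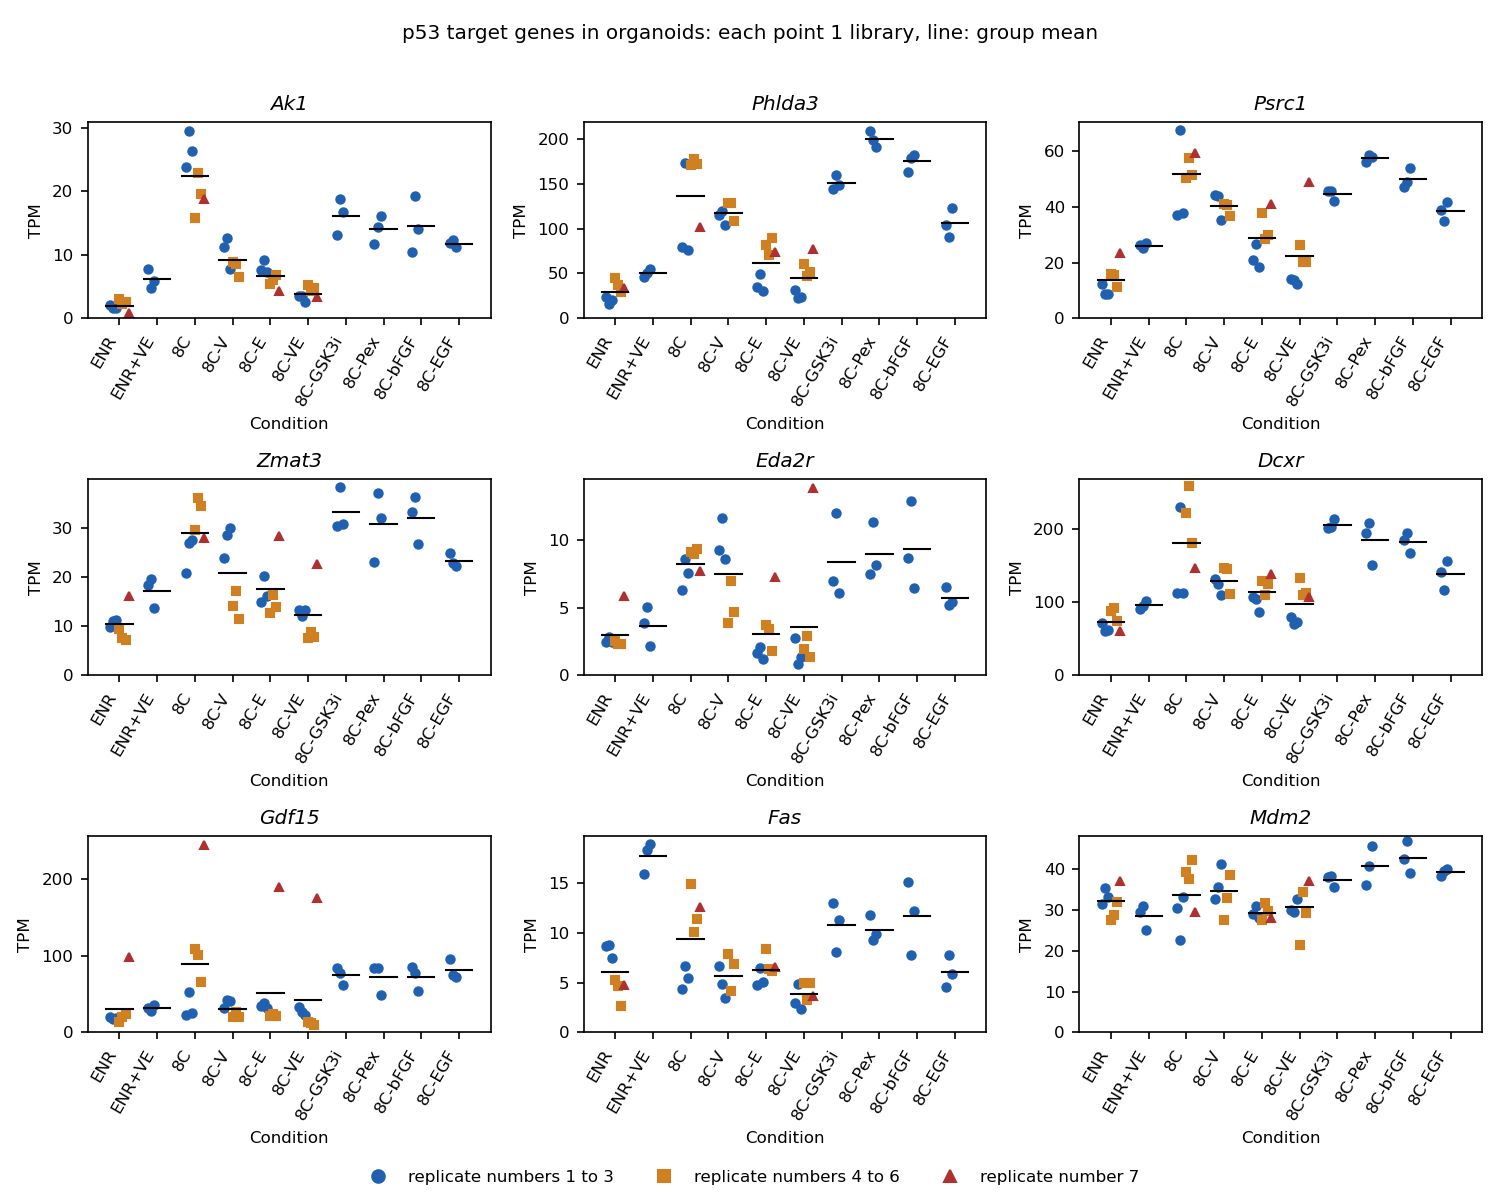
TPM (vertical axes, linear from 0) of 9 p53 target genes in the 10 organoid conditions, each point 1 library, lines at group means, with blue circles for replicate numbers 1 to 3, orange squares for 4 to 6 and red triangles for 7. Ak1 was highest in 8C and fell to its lowest among the 8C media in 8C-VE, while replicate 7 stands high for Gdf15 in ENR, 8C, 8C-E and 8C-VE.

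Ak1 (chr2:32621758-32635058) differed most. It was 15.8, 22.9 and 29.5 TPM in 8C and 0.874, 2.06 and 3.05 in ENR (lowest, median and highest of 7 each). The ranges were far apart, with a difference of 2.96 (SE 0.18, limma adjusted p = 2.0e-09). In 8C-VE it was 2.62, 3.56 and 5.24 TPM (-2.25 from 8C, SE 0.16), in 8C-V 6.45, 8.69 and 12.7 (-1.19, SE 0.17), and in 8C-E 4.33, 6.90 and 9.20 (-1.61, SE 0.16). No library of these 3 media reached the lowest of 8C, and each of these differences was called in every alternative. In ENR+VE it was 7.77, 4.79 and 5.94 TPM, above all ENR libraries (1.26, SE 0.23, limma adjusted p = 0.00237). This call was lost after quantile normalization and against ENR replicate numbers 4 to 6 only, with 0.81 the smallest value of 14 alternatives.

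Phlda3 was 75.6, 171 and 177 TPM in 8C and 16.2, 28.9 and 44.5 in ENR, with no overlap (2.15, SE 0.25, limma adjusted p = 4.6e-06). It was 22.8, 46.7 and 77.0 TPM in 8C-VE (-1.62 from 8C, SE 0.29), 30.5, 70.4 and 89.0 in 8C-E (-1.15, SE 0.28), and 104, 117 and 129 in 8C-V (-0.13, SE 0.21). Both 8C-VE and 8C-E overlapped the lowest 8C library, and those of 8C-V lay inside the range of 8C. The difference between 8C-E and 8C-V was not tested. Eda2r was at 6.34, 8.66 and 9.35 TPM in 8C, 2.30, 2.48 and 5.87 in ENR, 1.18, 2.13 and 7.32 in 8C-E (-1.33 from 8C, SE 0.24), and 3.86, 7.81 and 11.7 in 8C-V (-0.19, SE 0.21). Its difference between 8C and ENR (1.26) was no longer called after quantile normalization (0.85). The 8C-E and 8C-VE libraries lay below 8C except replicate 7, at 7.32 and 13.9 TPM.

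Psrc1 was 37.1, 51.5 and 67.5 TPM in 8C, 8.61, 12.5 and 23.4 in ENR (1.88, SE 0.20), and 12.3, 20.4 and 48.8 in 8C-VE (-1.29 from 8C, SE 0.25). Zmat3 was 20.7, 27.9 and 36.0 TPM in 8C, 7.24, 9.75 and 16.1 in ENR (1.42, SE 0.17), and 7.61, 12 and 22.6 in 8C-VE (-1.25 from 8C, SE 0.21), a call lost with replicate numbers 1 to 3 only (-0.90). For both, 8C and ENR did not overlap, and the highest 8C-VE library, replicate 7, lay inside the 8C range. Dcxr was 113, 180.2 and 258 TPM in 8C and 60.5, 71.0 and 91.5 in ENR (1.25, SE 0.19). Gdf15 was 22.3, 65.3 and 244 TPM in 8C and 13.9, 19.4 and 97.9 in ENR. Its groups overlapped, and the difference (1.44, SE 0.50, limma adjusted p = 0.0349) was lost in 4 of 12 alternatives, among them the libraries numbered 1 to 3 alone.

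In 8C-VE against 8C, limma called 6 of the 38 lower and none higher, against 9.06% and 1.62% of all 12622 genes. They were Ak1, Eda2r, Phlda3, Psrc1, Zmat3 and the death receptor gene Fas (-1.02, SE 0.24, limma adjusted p = 0.00505). Fas was 2.39, 3.61 and 5.00 TPM in 8C-VE, overlapping 8C, and its call was lost in 4 of 12 alternatives, among them leaving out replicate 7. The median of the 38 was -0.34, against -0.01 over all genes. In 8C-V against 8C the count was 1 lower and none higher, against 4.09% and 1.11% of all genes, and in 8C-E against 8C it was 3 lower and none higher, against 3.97% and 0.229%. In 8C-VE against ENR none was called, against 1.13% of all genes called higher and 2.07% lower, and 7 (18.4%) had an unadjusted p under 0.05, against 22.4% of all genes. With the replicate block, whose numbers pair the libraries of this comparison, Plk3 was called lower (-1.02, SE 0.17, limma adjusted p = 0.00352). The 8C libraries are shared by the first 3 of these comparisons. The test of whether the effect of one compound depends on the other called none of the 38, against 0.653% of all genes. At an unadjusted p under 0.05 there was 1 (2.63%), against 3.81% of all genes.

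**Figure D5:**
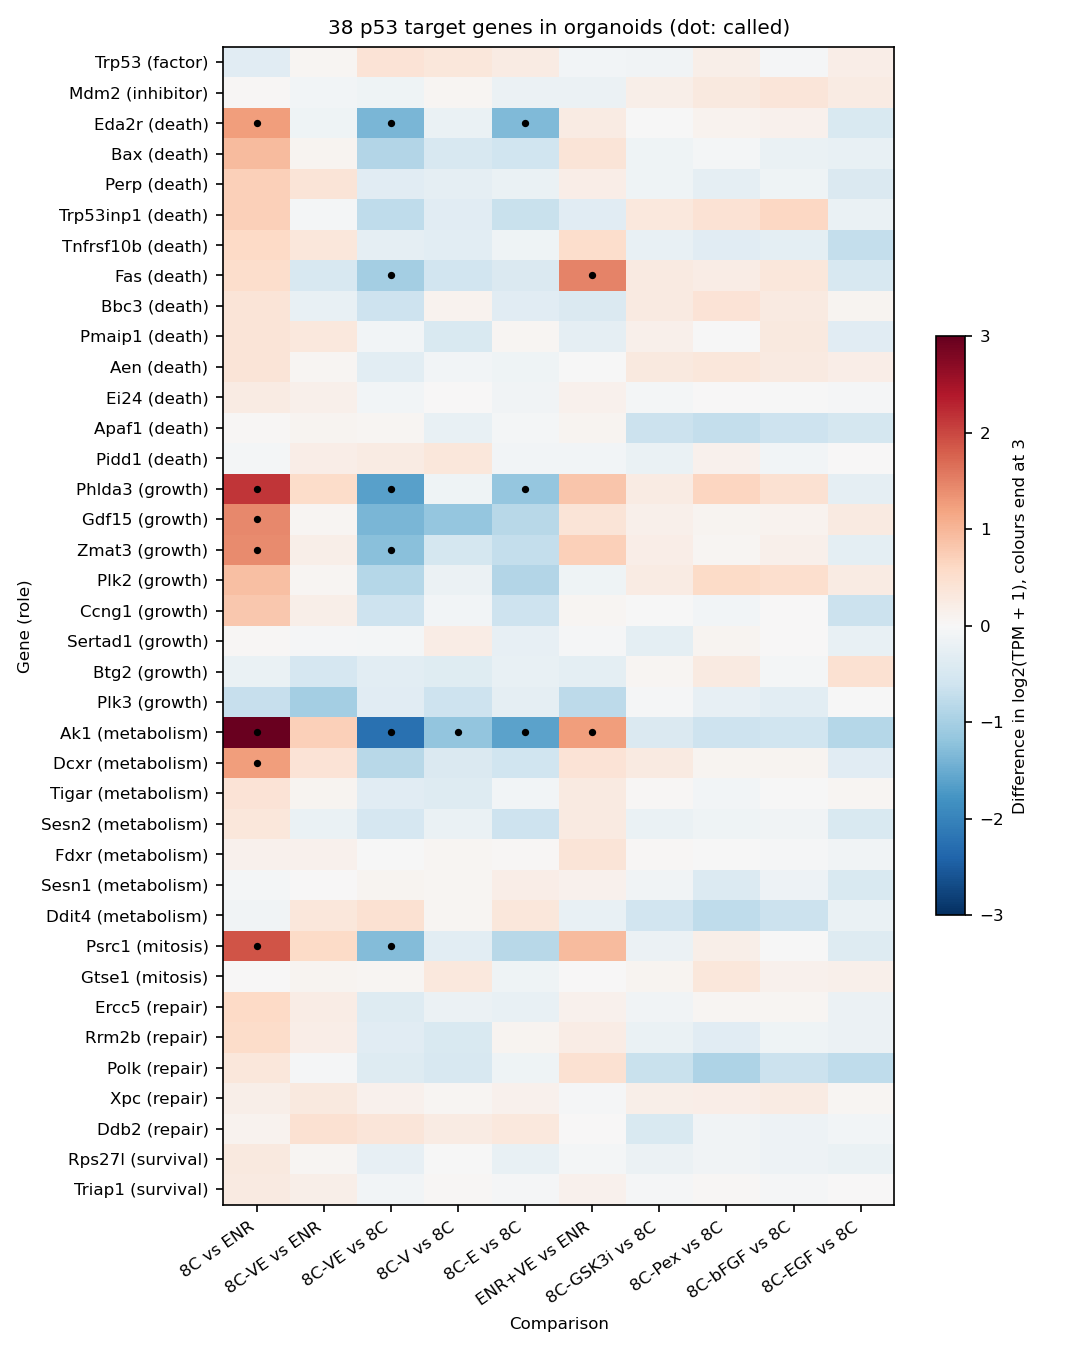
Difference in log2(TPM + 1) of the 38 genes (rows, grouped by role) in 10 organoid comparisons (columns), red higher, blue lower, with a dot where the gene was called and colours ending at 3. Dots appear in 8C against ENR (7, all red), 8C-VE (6), 8C-V (1) and 8C-E (3) against 8C (all blue) and ENR+VE against ENR (2, red), and in no other column.

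Adding VPA and EPZ6438 to ENR medium gave 2 higher and none lower, against 8.13% and 0.738% of all 12324 genes. These were Ak1 and Fas. Fas was 15.9, 18.3 and 18.9 TPM in ENR+VE and 2.64, 5.28 and 8.75 in ENR (lowest, median and highest of 7), with no overlap (1.48, SE 0.28, limma adjusted p = 0.00324). In 8C, which also holds both compounds, Fas was 4.38, 10.1 and 14.9 TPM, below every ENR+VE library. Phlda3 and Psrc1 were above all ENR libraries in ENR+VE, at 46.6 to 54.7 and 25.1 to 26.9 TPM, but under 2-fold (0.83 and 0.95). Both were called higher with replicate numbers 1 to 3 only (1.29 and 1.32, SE 0.15 each) and with the replicate block, and Psrc1 also without replicate 7 (1.08, SE 0.20) and with a pseudocount of 0.1 TPM. Neither was called when the 3 ENR+VE libraries, numbered 1 to 3, were set against ENR replicate numbers 4 to 6 only (0.45 and 0.84). The same held after quantile normalization (0.74 and 0.77).

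In media without GSK3iXV, Pexmetinib, bFGF or EGF, limma called none of the 38 against all 7 libraries of 8C. The numbers at an unadjusted p under 0.05 were 4 for 8C-GSK3i, 7 for 8C-Pex, 4 for 8C-bFGF and 8 for 8C-EGF (10.5%, 18.4%, 10.5% and 21.1%), each against the same 8C libraries, beside 6.53%, 13.0%, 5.56% and 12.7% of all genes. Of all genes, 0%, 0.334%, 0% and 0.272% were called higher and 0%, 0.148%, 0.00779% and 0.179% lower. The nearest were Ccng1 (-0.64, SE 0.13, limma adjusted p = 0.0598) and Ak1 (-0.85, SE 0.19, limma adjusted p = 0.075) without EGF. Ak1 was 11.2, 11.8 and 12.3 TPM in 8C-EGF, below the lowest 8C library. These results depend on which 8C libraries are compared. Against 8C replicates 1 to 3 alone, 2 were called in each medium, among them Ak1 without EGF (-1.11, SE 0.15, limma adjusted p = 0.00926), where 1.84% of all genes were called higher and 1.72% lower. In the other 3 media 3.16 to 4.06% of all genes were called higher and 2.37 to 3.06% lower. Against 8C replicates 4 to 6 alone, none reached 2-fold with an adjusted p under 0.05, but 12 had such a p without EGF, against 13.1% of all genes, among them Ccng1 (-0.79, SE 0.10), Phlda3 (-0.72, SE 0.12) and Ak1 (-0.66, SE 0.15). The labels name no batch, and whether these libraries share one with some of the 8C libraries was not tested.

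Of the 25 further targets, 24 passed the minimum mean in 8C against ENR, where 7 were called higher and none lower, against 11.9% and 3.31% of all genes. In 8C-VE against 8C, 4 were lower and none higher, against 9.06% and 1.62% of all genes, the 4 including Cdkn1a (-1.32, SE 0.24, limma adjusted p = 6.0e-04). Among the regulators, Cdkn2a, the gene of the p16 and p19ARF proteins, of which the latter blocks MDM2, was higher in 8C than in ENR by 4.83 (SE 0.57), lower in 8C-VE than in 8C (-4.64, SE 0.59) and in 8C-E than in 8C (-3.92, SE 0.59), and higher in ENR+VE than in ENR by 2.84 (SE 0.14). Markers of other cell types moved in the same comparisons. In 8C against ENR, 5 of 6 enterocyte markers (median -3.46), 3 of 5 Paneth cell markers (-2.35), 3 of 5 goblet cell markers (-1.75), both tested tuft cell markers (-1.27), Olfm4 of stem cells and Gcg of enteroendocrine cells were called lower. In 8C-VE against 8C, 4 of 5 Paneth cell markers (2.57), 3 of 5 goblet cell markers (1.18), 3 of 5 tested enterocyte markers (1.97), Olfm4 and Gcg were called higher. Proliferation genes held no call in any organoid comparison named here. The part of these cell types in the results of the 38 was not tested.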

How the data were processed

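Bulk RNA-seq of 67 libraries, 18 of crypts and 49 of organoids, was analysed from the expression tables. According to the methods and processing notes, the authors trimmed reads with Trimmomatic 0.39, aligned them to mm10 with STAR 2.7.3a and counted genes with featureCounts. The deposited values are TPM; how counts were converted is not given in the sources used here, and TPM keeps no read depth, so no counting intervals were made.

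Differences were tested on log2(TPM + 1) with limma 3.58.1 in R 4.3.3 (trend and robust empirical Bayes) among genes whose mean reached 1 TPM, with Benjamini-Hochberg adjustment over all genes. Fold changes are on this scale, which understates low genes. The 9 crypt groups entered 1 fit, and each organoid comparison was fitted on its own groups. There were 20 comparisons and 2 interactions. A call needed an adjusted p under 0.05 and a difference of at least 2-fold. The 38 genes and the other lists were chosen with earlier results of these data known. Any of the 38 could be named. Values per library were planned for Trp53, Mdm2 and called members, at most the 12 with the largest change per comparison. Some called members are given by their difference or by name alone. The others are given by ranges and counts, with a few uncalled members added after their values were seen. Other lists are given by counts, with called genes named.

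Alternatives were a pseudocount of 0.1 TPM, no minimum and a minimum of 5 TPM, quantile normalization, no minimum fold, removal of mitochondrial genes, a replicate block, fits of only the groups compared, the organoid replicate numbers 1 to 3 or 4 to 6 alone and leaving out each replicate. Organoid groups of 3 libraries were kept whole in the sets by replicate number. Removal of the trend with transcript length, leaving out replicate 7 and a crossed block were added after seeing the data. Among comparisons with at least 3 pairs, same-numbered libraries deviated together in every pair for 8C-VE against ENR (correlations 0.318 to 0.633) and 8C-V against 8C (0.104 to 0.600). On simulated data, 42% of 2-fold and 97% of 4-fold changes were recovered among 10802 genes for IR day 1 against Normal, and 82% and 98% among 12665 genes for 8C against ENR. Recovered meant an adjusted p under 0.05 in the right direction, with no minimum fold. A call also needs a difference of at least 2-fold, so these percentages overstate how often a 2-fold change would be called. The changed genes averaged above about 4 TPM, and the simulated spread was independent between genes. Gene coordinates are from GENCODE vM21 (mm10).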

Additional observations from a re-analysis of the deposited data

Results flagged for a closer look

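Single libraries stood apart from the rest of their group, by the gap to their nearest neighbour relative to the range, in 11 of 50 tests over 10 genes in organoid groups. The tests share the same libraries and are not independent, so a chance rate of 1 in 20 is no measure for this count. Replicate 7 was the outlying library in 10 of these. For Gdf15 it held 244 TPM in 8C (others 22.3 to 109), 97.9 in ENR (13.9 to 24.5), 189 in 8C-E (20.8 to 38) and 175 in 8C-VE (9.61 to 33.5). For Eda2r it held 5.87 TPM in ENR (2.30 to 2.81), 7.32 in 8C-E (1.18 to 3.76) and 13.9 in 8C-VE (0.821 to 2.95). In 8C-VE it held 22.6 TPM of Zmat3 (7.61 to 13.2) and 48.8 TPM of Psrc1 (12.3 to 26.5), and in ENR 140.4 TPM of Trp53 (115 to 125). The remaining one was Trp53 in 8C-VE replicate 4, at 112 TPM (127 to 137).

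The difference in Gtse1 between VE and IR crypts depended on the day by the limma interaction test (adjusted p = 0.0468), exceeding that of day 1 by 1.72 at day 3. It did not pass after quantile normalization.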

How the results depend on the processing

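The counts of called genes among the 38 moved by over 1.5 times in these settings; the cause was not tested. A pseudocount of 0.1 TPM gave 1 for VE against IR at day 2 and 2 over the 4 days. A minimum mean of 5 TPM gave 8 for IR day 2 and 1 for ENR+VE against ENR. Quantile normalization gave 6 for VE day 3, 15 for IR day 5 against day 1, 1 for ENR+VE and 0 for the interaction of treatment and day. Without a minimum fold there were 21 for IR day 2, 1 for VE day 2, 22 for VE over 4 days, 18 for 8C against ENR, 3 for 8C-VE against ENR, and 14, 2 and 8 for 8C-VE, 8C-V and 8C-E against 8C, and 6 for ENR+VE. With only the groups compared, IR day 1 gave 4 and VE day 2 gave 1. Replicate numbers 1 to 3 alone gave 1 for 8C-VE against ENR, 4 for ENR+VE and 2 each for 8C-GSK3i, 8C-Pex, 8C-bFGF and 8C-EGF. Numbers 4 to 6 alone gave 12 for 8C against ENR, 1 for 8C-VE against ENR, and 11, 3 and 8 for 8C-VE, 8C-V and 8C-E against 8C. ENR+VE, which has no such numbers, gave 4 against ENR numbers 4 to 6. With the length trend removed, IR day 2 gave 20, VE day 3 gave 5 and IR day 5 against day 1 gave 17, and at IR day 3 the directions of Ercc5 (0.14) and Xpc (0.03) reversed.

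With the replicate block the counts were 1 for 8C-VE against ENR, 4 for ENR+VE against ENR and 1 each for 8C-GSK3i and 8C-Pex against 8C; no other count moved by over 1.5 times. A crossed block gave 15 for IR day 1 and 13 for IR day 2. Leaving out single libraries gave 11 (without Normal replicate 1) to 15 for IR day 1, 13 to 16 for day 2, 15 to 17 for day 3, 8 to 12 for day 5, 13 to 19 for VE day 3, 7 to 12 for IR day 5 against day 1, 0 to 5 (without IR replicate 1) for VE day 1, 0 to 1 for VE day 2 and over 4 days, and 2 to 3 for ENR+VE. Without replicate 7, 8C against ENR gave 9 and 8C-VE against 8C gave 7. For fits with a library left out, the shares of all genes called are not given, so these counts have no background beside them.

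With 2 libraries a crypt group and unknown depth, changes near 2-fold are often missed, and a gene not called is not shown to be unchanged.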
